A study of Drosophila melanogaster with 3 samples.

Results

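Binding sites of the corepressor Coop that lay inside introns but close to a gene start are described here. A site is the summit of a peak, the single base at which the peak caller placed its highest signal. A summit was taken when it lay in the body of a protein-coding gene, in no exon of a protein-coding gene, and more than 500 bp and at most 5000 bp from the nearest protein-coding transcription start site. Of 6626 summits in the thresholded peak list, 1524 (23%) met this rule, in 1509 distinct peak intervals. They are called near-start intronic summits. The rule used position only, and not signal, recovery in the replicates, sequence or the identity of the host genes. The thresholded list had itself been filtered by the authors for reproducibility between replicates. Signal and recovery are conditioned by that filter for every summit, so they are read beside other summits of the same list.

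The samples were whole Drosophila melanogaster prepupae aged 24 h, mixed in sex, of 1 transgenic line that stably expressed CG1621 (Coop) with GFP fused to its C-terminal end. Chromatin was sonicated to fragments of 200 to 800 bp, the tagged protein was immunoprecipitated, and the DNA was sequenced (ChIP-seq). All 3 libraries are biological replicates of this 1 group, which means that no genotype, treatment or time can be compared. Whole animals were used, so a site in a few cells and a weaker site in many cells cannot be told apart. The free description of each library calls it an input control. Its assay title, antibody field and notes instead describe an immunoprecipitated library with a separate control. All 3 were read as ChIP libraries, and every value depends on that.

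Coop belongs to the MADF-BESS family of DNA-binding proteins and is known as a corepressor of Pangolin (Pan, the TCF factor of the fly), which carries Wingless signals to the DNA. In flies, the first intron of a gene and the sequence beside its promoter often hold enhancers, short stretches that transcription factors bind to raise or lower transcription. Introns of long genes can also hold further, internal start sites. A summit in an intron can therefore belong to the host gene, to an internal start site of it, or to a neighbouring gene.

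The windows below show 201 bp centred on the summits of the 6 strongest near-start intronic sites that were found in all 3 replicates. They are shown because a five-base word, CACTG or its reverse complement CAGTG, was frequent around these summits, and capitals mark each copy. All are on dm6, 5′ to 3′ on the plus strand. The window in ush is chr2L:480994-481194, in CG11050 chr2L:6612609-6612809, in CG9663 chr2L:3302090-3302290, in Lk6 chr3R:11760957-11761157, in CG32772 chrX:4910275-4910475 and in Reph chr2L:3804660-3804860.
ush: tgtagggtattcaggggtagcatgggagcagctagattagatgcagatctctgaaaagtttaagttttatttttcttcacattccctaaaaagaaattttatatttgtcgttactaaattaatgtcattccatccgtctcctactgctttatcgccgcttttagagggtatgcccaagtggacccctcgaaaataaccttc
CG11050: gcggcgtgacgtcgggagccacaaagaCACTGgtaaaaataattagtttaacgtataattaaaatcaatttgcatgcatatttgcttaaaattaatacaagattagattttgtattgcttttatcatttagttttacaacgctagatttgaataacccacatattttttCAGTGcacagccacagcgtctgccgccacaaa
CG9663: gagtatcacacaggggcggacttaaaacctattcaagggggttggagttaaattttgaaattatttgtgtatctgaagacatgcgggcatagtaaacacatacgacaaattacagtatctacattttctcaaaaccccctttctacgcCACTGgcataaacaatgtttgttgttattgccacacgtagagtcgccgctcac
Lk6: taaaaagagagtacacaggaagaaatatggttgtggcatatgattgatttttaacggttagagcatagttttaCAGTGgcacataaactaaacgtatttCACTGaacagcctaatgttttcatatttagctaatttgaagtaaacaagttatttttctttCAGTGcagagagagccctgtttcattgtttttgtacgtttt
CG32772: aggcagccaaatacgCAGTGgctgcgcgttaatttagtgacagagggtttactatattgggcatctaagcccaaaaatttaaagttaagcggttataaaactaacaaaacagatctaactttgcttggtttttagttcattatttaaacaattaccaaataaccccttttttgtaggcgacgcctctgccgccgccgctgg
Reph: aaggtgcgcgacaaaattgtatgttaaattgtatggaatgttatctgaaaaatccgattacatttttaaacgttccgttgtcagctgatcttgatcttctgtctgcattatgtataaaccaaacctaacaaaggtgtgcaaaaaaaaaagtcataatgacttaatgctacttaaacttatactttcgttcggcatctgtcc
The word occurs 3 times in the Lk6 window, 2 times in the CG11050 window, 1 time each in CG9663 and CG32772, and is missing from ush and Reph. In CG11050 the copies stand near both ends of the window and none is near the centre. The GC content of the windows was 32.3% in Lk6, 33.8% in Reph, 34.8% in CG11050, 38.8% in ush, 40.8% in CG32772 and 41.3% in CG9663.

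The deposited lists were 1 relaxed list of 30000 regions per replicate, 1 from the pooled replicates and the thresholded list. Read totals were not analysed here, so depth is unknown and each interval below covers counting error only. The signal value of a peak was set by the peak caller that the authors used. Its scale differed between lists, so it serves here to rank summits within 1 list. A summit was called found in a replicate when one of that replicate's 6626 strongest regions had its summit within 100 bp. Replicate 1 stood apart: 48.8% of its strongest 6626 summits were at promoters (within 500 bp of a start site), against 39.0% in replicate 2 and 37.3% in replicate 3. Its summits were also richer in G and C, at 43.1% over the near-start intronic windows, against 38.3% in replicate 2 and 39.2% in replicate 3. Results that rest on that library are given with and without it. With 3 replicates, the exact two-sided sign permutation used below cannot give a p under 0.25, so a test could not pass a threshold of 0.05 in this design.

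Near-start intronic summits were dense for intronic sequence. The sequence that met the rule amounted to 22.5 Mb and held 67.9 summits per Mb (95% Poisson interval 64.5 to 71.3). Intronic sequence more than 5000 bp from any start site held 32.1 per Mb, intergenic sequence at the same distances held 42.0 per Mb, and promoter sequence held 175 per Mb. In the 6626 strongest regions of each replicate, the near-start intronic density was 61.1, 68.8 and 67.4 per Mb in replicates 1, 2 and 3, against 26.4, 34.3 and 33.4 per Mb in far introns. The density was higher near start sites in 3 of 3 replicates and the ranges did not overlap, with a difference of 34.4 ± 0.321 per Mb (SD, n = 3; exact sign permutation p = 0.25, adjusted over 15 such comparisons 0.375). The difference from near-start intergenic sequence was 23.7 ± 2.45 per Mb, again positive in 3 of 3 replicates with the same p. Against promoters the difference was -114 ± 30.7 per Mb, negative in 3 of 3 replicates.

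**Figure D1:**
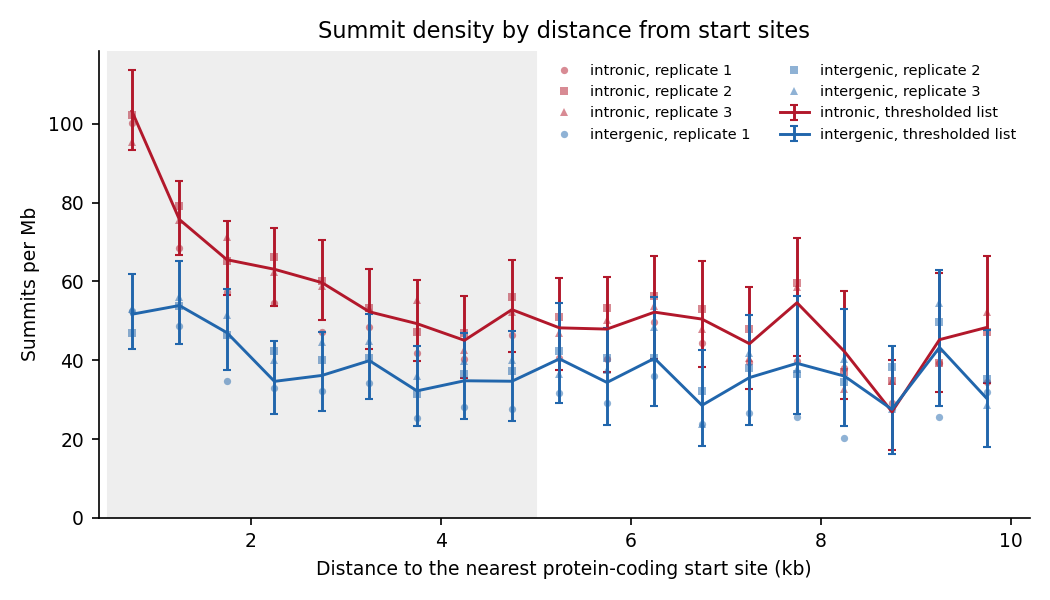
Summits per Mb (y axis) in 500 bp steps of distance from the nearest protein-coding start site (x axis, kb), for intronic sequence in red and intergenic sequence in blue. Lines and bars are the thresholded list with its 95% Poisson interval, small symbols are the 3 replicates, and the grey band is the range of the rule. Intronic density is highest in the first step, at 103 per Mb, and lies between 45.0 and 75.7 per Mb in the rest of the band.

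Density was lower further from the start site inside the band. It was 103 per Mb (93.4 to 114) between 500 and 1000 bp, 75.7 per Mb in the next step to 1500 bp and 52.8 per Mb (42.1 to 65.5) between 4500 and 5000 bp. Intergenic sequence was flatter, with 51.7 per Mb in the first step and 34.7 per Mb in the last. The intronic and intergenic intervals do not overlap in the steps up to 1500 bp and from 2000 to 3000 bp. They do overlap between 1500 and 2000 bp and in the steps from 3000 to 5000 bp. The median distance of the near-start intronic summits was 1736 bp (quartiles 959 and 2908 bp), against 2160 bp for the eligible sequence itself. Neither limit of the rule marks a break in the values. The 94 summits just inside the lower limit (up to 600 bp) had a median signal of 335 and 57.4% were found in all 3 replicates, and the 68 intronic summits just outside it (400 to 500 bp) had 332 and 58.8%. At the upper limit, the 83 summits just inside (4500 to 5000 bp) had a median signal of 271 with 47.0% in all 3, and the 70 just outside (to 5500 bp) had 265 with 42.9%.

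First introns held most of the sites. Of the 1524 summits, 1150 (75.5%) lay in the first intron of a transcript of the host, while first introns make up 59.0% of the eligible sequence. Over the 3 replicates it averaged 76.0% ± 0.760 (SD, n = 3). First introns held 86.8 summits per Mb (81.9 to 92.0), and introns that were never first held 40.6 per Mb (36.6 to 44.9). The difference was positive in 3 of 3 replicates, with a mean of 46.3 ± 2.06 per Mb (exact sign permutation p = 0.25). First introns lie closer to start sites than later ones, so the comparison was repeated at matched distance. It was 122 against 55.8 per Mb between 500 and 1000 bp, 83.4 against 45.4 per Mb from 1000 to 2500 bp, and 70.2 against 33.2 per Mb from 2500 to 5000 bp. First introns were the denser in 3 of 3 replicates at each distance.

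The nearest start site usually belonged to the host. For 935 summits (61.4%) it was a host start site upstream of the summit, so that the summit lay inside the transcribed part, and for 366 (24.0%) it was an internal start site of the host that lay downstream. The remaining 223 (14.6%) were nearest to a start site of another gene. Sequence just upstream of an internal start site was the densest, at 98.2 per Mb (88.4 to 109), followed by 71.0 per Mb (66.5 to 75.7) downstream of a host start site and 40.1 per Mb (35.0 to 45.7) where another gene's start site was nearest. That order recurred in all 3 replicates, with 86.9, 96.1 and 92.3 per Mb upstream of an internal start site, 65.0, 73.9 and 69.9 per Mb downstream of a host start site, and 34.4, 38.5 and 44.8 per Mb near another gene's. Short introns held few summits: introns of up to 1 kb had 24.97 per Mb (71 summits), against 70.4 per Mb in introns over 1 and up to 5 kb, 78.3 per Mb over 5 and up to 20 kb and 70.9 per Mb over 20 kb. Annotated transposable elements held 2 summits (0.131%), although they cover 4.07% of the eligible sequence. How well reads map to such repeats was not analysed here. Start sites of annotated non-coding RNA genes lay within 500 bp of 42 summits (2.76%), against 1.51% of the eligible sequence.

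By chromosome arm, near-start intronic summits were densest on X, with 76.3 per Mb (68.4 to 84.8), and numbered 63.3 to 71.6 per Mb on the large autosome arms. The share found in all 3 replicates was 57.4% on X and 43.7 to 50.6% on those arms. Chromosome 4, the small and largely heterochromatic chromosome, had 1 such summit, or 3.56 per Mb. A median peak interval was 302.5 bp wide for near-start intronic summits and 386 bp wide at promoters. Another summit of any class lay within 1000 bp of 474 near-start intronic summits (31.1%).

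Recovery in the replicates was close to that of other summits. Found in all 3 replicates were 759 near-start intronic summits (49.8%, exact binomial interval 47.3 to 52.3%), against 48.0% of all 6626 summits (3178). Replicate 1 held 68.5% of the near-start intronic summits, replicate 2 held 84.1% and replicate 3 held 79.9%, against 69.9, 81.8 and 77.6% of the other summits. The difference was negative in replicate 1 and positive in the other 2, with a mean of 1.09 ± 2.12 percentage points (exact sign permutation p = 0.5). Those found in replicates 2 and 3 but not in replicate 1 numbered 298 (19.6%). That share was 18.2% of all other summits, 25.3% in far introns, 25.6% in near-start intergenic sequence and 11.6% at promoters. Found in replicate 1 alone were 56 of the 1524, beside 303 of all 6626 summits and 178 of 2683 promoter summits. Without replicate 1, the share found in every remaining library was 69.4%, and it was 56.0% without replicate 2 and 58.7% without replicate 3. In the longer lists of 30000 regions, 92.8, 97.2 and 92.9% were present, so most of the missing ones ranked lower and were not absent. The median distance between the summit of the thresholded list and that of the replicate was 16, 14 and 11 bp. As a description across the shared summits, Spearman's rank correlation was 0.779 between replicates 2 and 3 (1380 summits), 0.586 between 1 and 3 (1311) and 0.562 between 1 and 2 (1376).

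Signal was moderate. The median signal in the thresholded list was 296 (quartiles 218 and 469, highest 3654). It was 285 for all other summits, 271 in far introns, 300 in near-start intergenic sequence and 294 at promoters. In percentiles of each replicate's ranking, the median near-start intronic summit stood 2.37, 4.57 and 0.573 points above the other summits in replicates 1, 2 and 3. The mean difference was 2.51 ± 2.00 points, positive in 3 of 3 replicates (exact sign permutation p = 0.25), and it was -0.0151 ± 3.27 when only summits more than 1000 bp from a start site were taken. Above far introns the difference was 6.13 ± 2.28 points, also in 3 of 3. Above near-start intergenic summits it was 3.74 ± 1.45 points, again in 3 of 3. Against promoters it was -0.672 ± 3.96 points, with a sign that differed between replicates. Near-start intronic summits made up 17.0% of the 100 strongest pooled regions, where promoters took 61.0%, and 25.6% of ranks 1001 to 2000. Further down the relaxed pooled list they still formed 20.75% of ranks 20001 to 30000, where promoters formed 14.17%.

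The strongest site lay in the 49060 bp first intron of ush (u-shaped), a cofactor of GATA factors in blood cell and heart development. Its signal was 3654, and it ranked 33, 9 and 16 in replicates 1, 2 and 3. The nearest start site, 1406 bp away, was that of the neighbour cbt (cabut), a zinc finger transcription factor. CG11050 followed with 3633 and ranks 35, 4 and 26, in an intron of only 140 bp, which is shorter than the window printed above. CG9663 had 3494 (ranks 20, 18 and 28) and Lk6, a kinase that phosphorylates the translation factor eIF4E, had 3400 (ranks 24, 17 and 29). These 4 were among the 35 strongest regions of every replicate.

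The 25 strongest near-start intronic summits found in all 3 replicates had signals from 1630 to 3654. They held pooled ranks up to 128, no summit of the class within that range was missed by a replicate, and 24 of the 25 ranked within the first 500 in each replicate. First introns held 20 of them. For 12 the nearest start site was a host start site upstream of the summit, for 12 it was an internal start site downstream, and 1, in ush, was nearest to another gene. Regulators of transcription and chromatin among them were jumu, a forkhead factor (2351), the adjoining HMG-box genes HmgZ and HmgD (2214), Trl, which encodes GAGA factor (2111), Tet, a dioxygenase of the Tet family (1899), and NFAT (1642). Others were pum, the translational repressor Pumilio (2178), the lipoprotein receptor genes LpR2 (1997) and LRP1 (1794), chif, the activating subunit of the Cdc7 replication kinase (1984), LPCAT, a phospholipid acyltransferase (1865), and ImpL2, a secreted antagonist of insulin-like peptides (1643). Mhcl, a myosin heavy chain-like gene, closed the list at 1630. A library could move 1 site a long way: jumu ranked 19, 41 and 501, Trl 234, 46 and 54, and Tet 442, 59 and 59. Replicate 1 gave the lowest rank to 14 of the 25, replicate 3 to 10 and replicate 2 to 1.

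**Figure D2:**
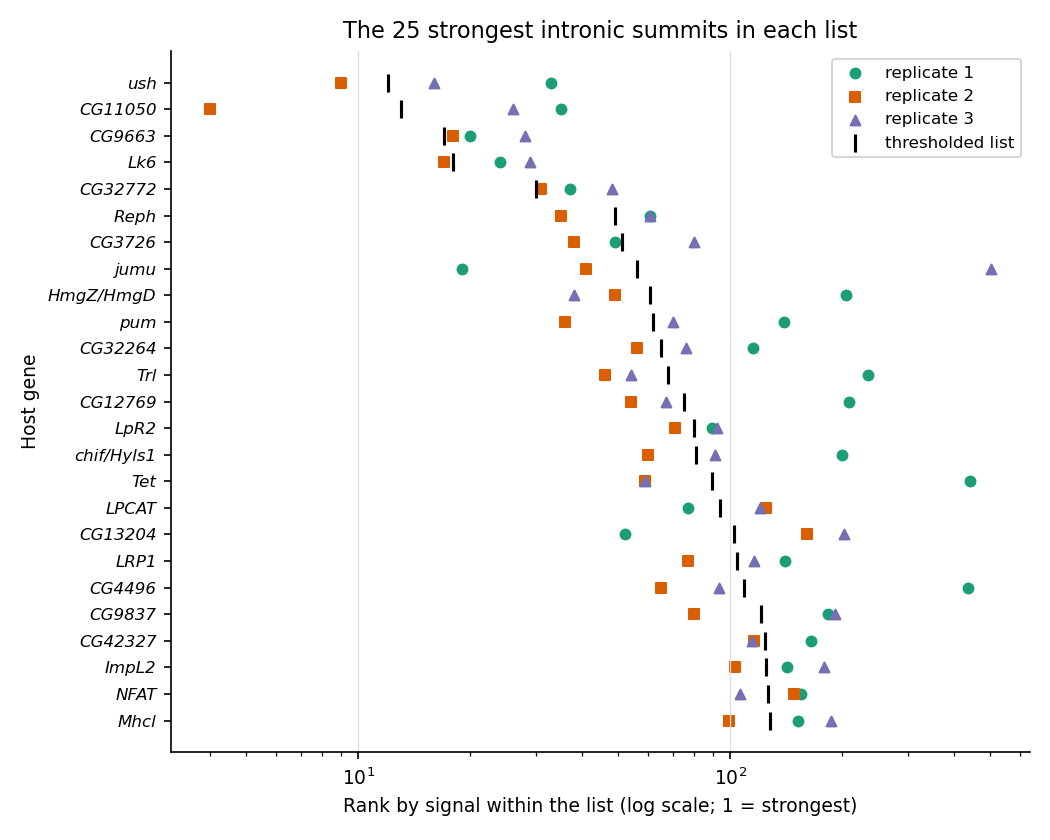
Rank by signal within each list (x axis, log scale, 1 is strongest) of the 25 strongest near-start intronic summits, with the host gene on the y axis. Symbols are the 3 replicates and the black tick is the thresholded list. The first 5 sites keep ranks under 50 in every replicate, and jumu, Tet and CG4496 have 1 replicate beyond rank 400.

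A total of 935 genes hosted a near-start intronic summit, which is 10.1% of the 9242 protein-coding genes with any sequence of the same rule. A single summit was held by 582 hosts, and 353 (37.8%) held more. Hosts were long genes, with a median of 16.3 kb against 3.49 kb for all genes with such sequence, and had a median of 6.01 kb of eligible sequence against 0.466 kb. Longer genes offer more sequence to be hit, so counts of hosts are read below beside summits per Mb.

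The most frequent hosts were Tlk and CG1677, both on X, with 12 summits each. Tlk (chrX:3720007-3789770, plus strand) encodes Tousled-like kinase, which acts on histone chaperones. Of its 12 summits, 11 lay in a first intron and 8 were found in all 3 replicates, with signals from 192 over a median of 418 to 1588. The strongest ranked 132, 179 and 109 in the 3 replicates. CG1677 (chrX:7281089-7405797, minus strand) held signals from 246 to 1214.7, 6 in all 3 replicates, and only 1 in a first intron. The nearest start site of each of its summits belonged to another gene, such as unc-119, brk or Dok. Next were shn (schnurri, a zinc finger repressor of the Dpp pathway) with 11, Svil (supervillin, which binds actin) with 10 and psq (a BTB factor) with 9. The translational repressor gene brat, the adhesion gene kirre, CG14434 and the chromatin gene tou had 8 each, and CHES-1-like, a forkhead gene, had 7. The share found in all 3 replicates ranged from 3 of 9 in psq to 6 of 8 in CG14434. Density also varied: CG14434 held its 8 in 11.0 kb of eligible sequence, while kirre spread 8 over 100.5 kb. Some summits counted for Svil, brat, kirre and CG14434 were also nearest to start sites of other genes, such as CG16762, Polr1D, rst and CG43736. Of these 10 genes, kirre was the one without a promoter summit.

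Host genes often had a promoter summit as well. Of the 935 hosts, 541 (57.9%) had a summit at one of their own promoters, against 21.1% of all 13968 protein-coding genes and 1813 of 8307 genes (21.8%) that had eligible sequence and no near-start intronic summit. The shares were 67.2, 53.3 and 54.5% of hosts in the 3 replicates, against 27.6, 22.4 and 18.8% of the other genes. All 3 host values lay above all 3 others, and the mean difference was 35.4 ± 4.35 percentage points (SD, n = 3; exact sign permutation p = 0.25). The difference was present at every amount of eligible sequence. Among genes with over 10 kb of eligible sequence, 65.7% of hosts and 28.5% of other genes had a promoter summit, and with up to 1 kb it was 51.2% against 19.5%. Hosts were higher in 3 of 3 replicates in each of the 5 length bins. Genes with more start sites have more chances of a promoter summit, and the number of start sites was not matched.

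**Figure D3:**
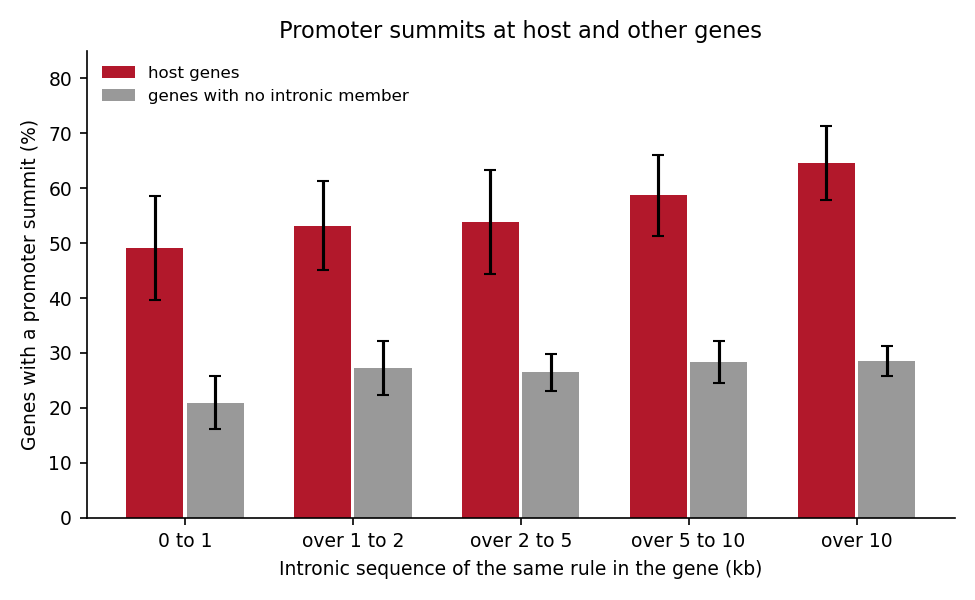
Percent of genes with a summit within 500 bp of one of their own start sites (y axis), for host genes in red and genes without a near-start intronic summit in grey, by the amount of eligible intronic sequence in the gene (x axis, kb). Bars are means and error bars SDs over 3 replicates. Hosts lie between 49.2 and 64.5% and other genes between 20.9 and 28.5%.

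Genes of growth factor signalling were frequent hosts. Over all genes the density was 67.8 per Mb (64.5 to 71.2), counting a summit once for each host. The insulin and TOR list had 7 hosts of 21 genes with eligible sequence and 267 per Mb (156 to 428). Its hosts were the antagonist ImpL2, the transcription factor foxo (strongest signal 876), the kinases Sik3 (561), S6k (401), Pdk1 (242) and Akt (227), and the receptor InR (290). The EGFR list had 13 of 23 and 249 per Mb (169 to 353), among them the receptor Egfr (885), the kinase Raf (945), the ETS repressor aop (1188) and edl, which binds such ETS factors (1549). The receptor gene, Raf and aop held 5 summits each. The Dpp and activin list had 11 of 23 and 204 per Mb (137 to 293). The repressor gene shn alone held 11 of its 29 summits, the strongest at 1289. The list also took in the receptors wit (1403), tkv (740) and put (700), the glypican dlp (863), the ligand dpp (284), the transducer Mad (266) and the inhibitory SMAD Dad (496). Lists overlap (ImpL2, Diap1, Trl and others stand in more than 1), so their counts are not independent. Summits often shared a host gene, and the Poisson intervals count each summit as independent. The intervals here and below can therefore be too narrow to test a list against all genes.

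Other lists varied more widely in density. The JAK-STAT list had 4 hosts of 11 and 157 per Mb (80.9 to 273), led by the factor Stat92E (547) and the phosphatase gene Ptp61F (534), which held 7 summits. The Notch list had 7 of 19 and 126 per Mb (70.7 to 208), led by the ubiquitin ligase neur (1614) and the coactivator mam (790, 7 summits). The Hippo list had 4 of 17 and 141 per Mb (67.5 to 259), with Diap1, the apoptosis inhibitor, CycE, kibra and the kinase wts. Cell death and autophagy genes had 6 of 23 and 243 per Mb (126 to 425), of which Diap1 alone held 5 summits. Genes of chromatin and corepression had 13 of 39 and 236 per Mb (160 to 334), with Trl, trx (969), kis (868) and ph-p (596). The corepressor gene CtBP held 2 summits, the stronger at 351.

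Pulses of the steroid ecdysone drive metamorphosis. The list of ecdysone response genes had 16 hosts of 27, a large share, but these genes are long (median eligible sequence 10.6 kb) and the density of 104 per Mb (71.9 to 147) was much nearer to that of all genes. Hosts included the receptor EcR (698, 5 summits), the nuclear receptors Eip78C (1285), Eip75B (560, 6 summits), Hr3 (190), Hr4 (185) and ftz-f1 (184), the ETS factor Eip74EF (551), the BTB factor br (332) and the coactivator tai (413). The number of hosts was 14, 17 and 15 in the replicate lists. The circadian list had 4 of 15 and 108 per Mb (54.1 to 194), with 6 summits in vri, a repressor of Clock. The MADF and BESS family, to which Coop belongs, had 2 hosts of 8, Adf1 (1275) and hng3 (721). Its density of 149 per Mb has an interval of 30.6 to 434, too wide to set it apart from all genes.

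For markers of cell types in the whole animal, the interval of the density held that of all genes or lay below it. Blood cell and immune genes had 4 hosts of 31 and 89.1 per Mb (40.8 to 169), where ush, Dif, Tl and Tak1 carried all 9 summits. Fat body and metabolic genes had 4 of 20 and 131 per Mb (48.2 to 286), namely Lsd-2, SREBP, bmm and Hnf4. Muscle genes had 2 of 25 and 38.0 per Mb (12.4 to 88.8), with 4 summits in the muscle regulator Mef2 (794) and 1 in Msp300. Neuronal genes had 3 of 30 and 13.6 per Mb (2.80 to 39.7), in elav, Rbp9 and ChAT. Axon guidance and adhesion genes had 14 of 48 and 46.6 per Mb (31.0 to 67.3), of which kirre had 8 summits. Patterning factors had 14 of 65 and 66.6 per Mb (46.7 to 92.2). Of 49 ribosomal protein genes with eligible sequence, 0 hosted a summit, in the replicates as well; their introns offer so little sequence that the interval reaches 177 per Mb.

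**Figure D4:**
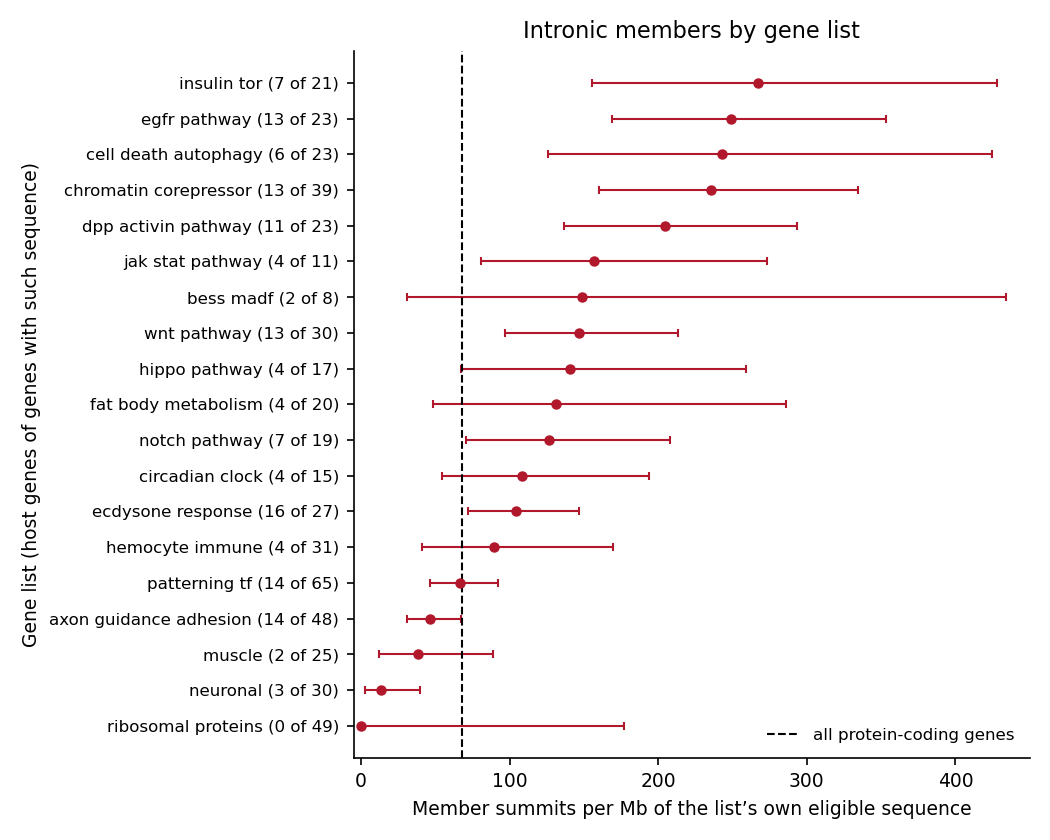
Near-start intronic summits per Mb of eligible sequence (x axis) for 19 gene lists (y axis, with hosts of genes that have such sequence), with 95% Poisson intervals. The dashed line is all protein-coding genes at 67.8 per Mb. The insulin, EGFR, cell death, chromatin and Dpp lists lie above 200 per Mb, and the neuronal list at 13.6 per Mb lies below the line with its whole interval.

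The Wingless pathway bears on the known partner of Coop. Its list had 13 hosts of 30 and 147 per Mb (96.6 to 213), with 27 summits, of which 12 were found in all 3 replicates. Receptors were the most frequent: fz2 held 6 summits (strongest 981, ranks 550, 478 and 348), fz3 held 3 (318), fz held 1 (765, ranks 1024, 637 and 661), and the coreceptor gene arr held 2 (249). The fz summit and both arr summits were nearest to a start site of another gene, CG13481 and CG43192. The kinase gene sgg held 2 (709), and arm, which encodes beta-catenin, held 1 (198). Feedback inhibitors of the pathway were present, nkd with 2 (611, ranks 4008, 542 and 1147) and Notum with 2 (263). The ligand gene Wnt2 held 2 (239), and the receptors of the Ryk type dnt and drl held 2 (350) and 1 (249). Most were weak: the median signal was 250, against 296 for all near-start intronic summits. None of the 27 windows held the Pan site CTTTGAT on either strand, which allows a share of up to 11.1%. Over all 1524 windows 57 held it (3.74%).

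Known motifs differed little between summit and flank. Each of 32 short consensus motifs was searched on both strands in 201 bp centred on the summit and in 201 bp centred 500 bp to each side, and copies that overlap counted as one presence. Over all summits, 34.4% of the motifs (11 of 32) were more frequent at the summit than in the flanks in 3 of 3 replicates, and 25% (8 of 32) were less frequent in 3 of 3. At near-start intronic summits, 6 of 32 (18.75%) were more and 10 (31.25%) less frequent. Every one of these had an exact sign permutation p of 0.25 and an adjusted p of 0.5. The 6 were the heat shock element, the Su(Hw) core GCATACTT, the PAR bZIP site TTANGTAA (vri and Pdp1), the AP-1 site TGANTCA, the CRE site TGACGTCA and a run of 8 A.

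The AP-1 site, bound by Jra and kay, was in 98 windows (6.43%), against 5.05% of flanks and 5.23% of all eligible windows. Its replicate values were 5.98, 6.86 and 5.35% at summits, against 5.18, 4.75 and 4.82% in flanks. The PAR bZIP site was in 70 windows (4.59%), against 3.08% of flanks and 3.88% of eligible windows. The heat shock element was in 8 windows (0.525%), against 0.164% of flanks and 0.226% of eligible windows, among them windows in Hers, eIF4EHP, spin and Raf. These differences are small in number of sites, and 8 windows allow no finer statement.

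The promoter elements DRE and Motif 1 were rare here, and the TATA box was not. TATAAAA was in 183 windows (12.0%), against 8.86% of flanks, 10.3% of eligible windows and 10.6% of promoter summits. Far intronic summits held it at 13.6% and near-start intergenic summits at 11.6%. In replicates 1, 2 and 3 it was in 9.11, 12.5 and 12.2% of near-start intronic windows. Flank windows held it at 9.95, 8.60 and 8.49%, so it was higher than in flanks in 2 of 3 replicates. Far intronic summits held it at 9.37, 15.6 and 14.0%, which was higher in each replicate. The DRE TATCGATA, bound by Dref, was in 5 windows (0.328%), against 0.459% of flanks, while 4.96% of promoter summits held it. Motif 1, GGTCACACT, was in 3 windows (0.197%), against 0.230% of flanks and 3.76% of promoter summits. The Pan site CTTTGAT was in 2.33, 3.62 and 3.76% of summit windows in replicates 1, 2 and 3, against 3.90, 3.78 and 3.996% of flank windows, so it was lower in 3 of 3, and 4.07% of eligible windows held it. Its mean difference was -0.653 ± 0.792 percentage points, -0.196 without replicate 1 and 0.126 with flanks taken 1000 bp away. The palindromic element of the ecdysone receptor was in 0 of 1524 windows, which allows a share of up to 0.197%, and 0.0403% of eligible windows hold it. GAGAGAG, the repeat bound by GAGA factor, was in 10.9, 6.21 and 5.35% of summit windows, against 5.25, 6.24 and 6.47% of flanks. Its mean difference of 1.51 ± 3.66 percentage points rested on replicate 1, the library whose summits were also richer in G and C, and was -0.578 without it.

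A search with no prior motif was made over all 2080 six-base words, where a word and its reverse complement count as 1. At near-start intronic summits, 351 words (16.9%) were higher than in the flanks in 3 of 3 replicates, which is near the 18.3% (381 words) over all summits. The words with the greatest ratio shared letters. ACAGTG was in 17.8% of windows, against 8.01% of flanks, AGTGTA in 15.6% against 7.22%, CTGTAC in 8.99% against 4.36%, and CACTGA in 16.3% against 8.07%. CACTG or its complement CAGTG was contained in 4 of the 10 six-base words of greatest ratio and in 8 of the 10 eight-base words. Longer words stood out further: CAGTGTAC was in 35 windows (2.30%), against 0.262% of flanks, CACTGAGA in 61 (4.003%), against 0.656%, and CACTGTGC in 74 (4.86%), against 0.984%.

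The five-base word itself was chosen after these values were seen. It was in 690 of 1524 windows (45.3%), against 29.1% of flanks and 27.9% of all eligible windows. In the replicates it was in 45.4, 45.8 and 44.1% of summit windows, against 30.03, 29.1 and 28.9% of flanks. The difference of 15.7 ± 0.839 percentage points was positive in 3 of 3 (SD, n = 3, exact sign permutation p = 0.25). Leaving out each replicate in turn gave differences from 15.3 to 16.0 points. The replicate lists share most of these summits and the word was picked from their windows. The agreement and the SD are therefore no independent support for the word. It was not particular to near-start introns: 48.9% of far intronic, 50.9% of near-start intergenic and 43.8% of promoter summits held it.

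**Figure D5:**
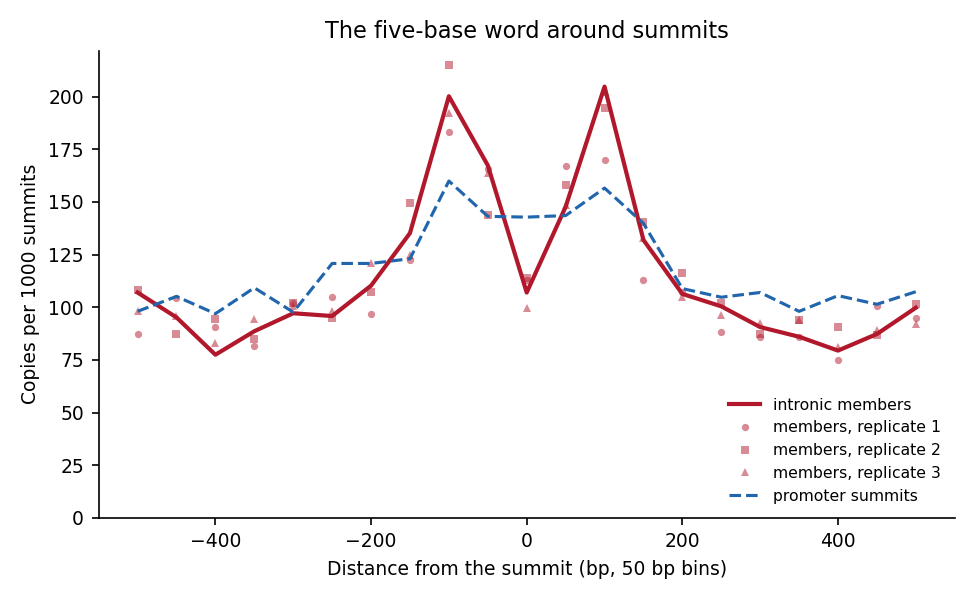
Copies of CACTG or CAGTG per 1000 summits (y axis) in 50 bp bins of distance from the summit (x axis, bp), for near-start intronic summits as a red line, their 3 replicates as symbols, and promoter summits as a dashed blue line. The red line has 2 peaks, at 200 and 205 copies 100 bp to either side, and a dip to 107 at the summit itself.

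Copies of the word were most frequent about 100 bp to either side of the summit, with fewer at the summit itself. Per 1000 near-start intronic summits there were 200 copies in the 50 bp bin centred 100 bp to the left, 205 in that 100 bp to the right, 107 at the summit and 97.1 in the bin 300 bp to the left. At promoter summits the same bins held 160, 157 and 143 copies in the order left, right and centre, a shallower dip, and far intronic summits held 248, 249 and 79, a deeper one. All 3 replicates of the near-start intronic summits had the dip, yet their centre was no poorer in copies than sequence 300 bp away. A copy 50 to 150 bp to the left was found at 482 near-start intronic summits, to the right at 468 and on both sides at 184 (12.1%), against 16.4% with both at far intronic, 13.5% at near-start intergenic and 8.01% at promoter summits. A copy within 50 bp of the summit was present at 314 (20.6%). The window printed for CG11050 shows such an arrangement, with a copy on either side and none at the centre, whereas 1 of the copies in Lk6 lies at the centre. The intron of 140 bp in CG11050 is shorter than the stretch that spans these copies. They therefore do not both lie wholly inside the intron.

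Median signal and the share found in all 3 replicates were higher with more copies. Median signal was 280 with 0 copies (834 summits), 302 with 1 (461), 323 with 2 (182) and 390 with 3 or more (47). The share found in all 3 replicates was 46.0, 51.2, 56.6 and 76.6% in the same order, beside the 48.0% of all summits. Taken singly, replicate 1 held 67.9, 67.5, 69.8 and 85.1% in that order. Replicate 2 held 81.7, 87.0, 85.7 and 91.5%, and replicate 3 held 79.0, 79.4, 82.4 and 91.5%. The rise was thus not steady in replicates 1 and 2, and its largest part rested on the 47 summits with 3 or more copies. The lower quartile of signal hardly moved up to 2 copies (216, 217 and 216). The share of windows with the word was 50.4% among the strongest 381 summits, 47.2 and 38.8% in the next groups of 381 and 44.6% among the weakest. In the thresholded list it thus did not fall steadily with signal. Each replicate's own ranking was also cut into 4 groups. The strongest group held the word at 50.7, 47.8 and 49.6% in replicates 1, 2 and 3. The weakest held it at 40.8, 42.2 and 41.0%, the lowest group in each replicate. Of the 25 strongest sites, 14 held the word. By gene list it was in 10 of 27 Wingless-list summits (37.0%), 18 of 31 EGFR-list summits (58.1%) and 19 of 28 axon guidance summits (67.9%), with too few sites to order the lists.

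Some words were scarcer at the summits. CCGACC was in 1.97% of windows, against 4.003% of flanks, GCCCAA in 5.05% against 10.07%, and CCCAAA in 8.33% against 16.1%, each lower in 3 of 3 replicates. Mean GC content over the windows was 39.9%, against 41.4% in flanks and 40.0% in all eligible windows. It was above the flanks in replicate 1 and below them in replicates 2 and 3. Whether base composition accounts for the scarcer words was not tested.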

How the data were processed

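Peak lists of ChIP-seq on 3 replicate libraries were analysed. Per the notes deposited with each library, the authors made each list from that library's alignment and 1 control alignment shared by all 3, on dm6. Which peak caller made the lists, and the cutoff on the irreproducible discovery rate behind the thresholded one, are not given in the sources used here. Signal, as deposited by the authors, is a score whose scale differs between lists, and the other columns used, also deposited by the authors, are positions. Read totals were not analysed here, so depth is unknown. Summits were classed with Ensembl release 115 (BDGP 6.54), which gave 13968 protein-coding genes and 19276 distinct start sites, and sequence was read from genome release 6. Eligible sequence is every base that meets the same rule, and per-gene densities count a summit once for each host. Shares in replicates come from the 6626 strongest regions of each list. Differences over the 3 replicates were tested with an exact two-sided sign permutation, with Benjamini-Hochberg adjustment within a family; intervals are exact Poisson or binomial (95%). Of 613 names in 19 hand-made gene lists, 30 matched no gene, and ribosomal protein genes were taken by name; 1 list is not reported here. The members and lists were chosen with earlier results of these data known, so no list is independent support. The text names the 25 members of highest signal found in all 3 replicates, the 10 hosts with most members, up to 4 hosts per list by strongest member, up to 10 motifs and words by ratio of summit to flank, and summits at each distance limit; further hosts, motifs and the five-base word were chosen after their values were seen. Scripts were tested on simulated data. Python 3.11.15, numpy 2.4.6, scipy 1.17.1, pandas 2.3.3, statsmodels 0.14.6 and matplotlib 3.10.9 were used.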

Additional observations from a re-analysis of the deposited data

How the results depend on the processing

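No paired analysis was possible because all 3 libraries belong to 1 group, so no second group shares their numbers; classes of summits were compared within each library. Over 13 changes of setting, 85 of 120 recomputed main results were labelled the same and 35 moved. Values without a test were held against the replicate SD or interval, and counts against a fixed fold. A tested difference kept the label whatever its size unless its sign changed, and the rank difference kept it always. The replicate mean difference from far introns, 34.4 per Mb, was 27.2 above 1000 bp and 41.3 up to 2500 bp. The rank difference of 2.51 points became -0.0151 above 1000 bp. With a lower limit of more than 1000 bp, the near-start intronic share of summits was 16.8% (mean of replicates 16.3%), the density 60.2 per Mb (58.6), the difference from far introns 28.1 per Mb and the first-intron share 72.1% (73.0%). With an upper limit of 2500 bp these were 15.5% (15.1%), 79.3 per Mb (77.1), 42.5 per Mb and 78.5% (79.0%). With the stronger 50% of peaks, 52.9% were found in all 3 replicates, the density was 34.9 per Mb (34.4), 20.4 per Mb above far introns, the first-intron share over replicates was 76.9%, 3 motifs were higher, 588 genes were hosts, and 35.4% (38.7%) of hosts had a promoter summit, 22.4 points above other genes. With 1 summit per interval the difference from far introns was 35.2 per Mb. The share found in all 3 was 39.2% when a match was within 50 bp, 53.9% within 200 bp and 69.0% in lists of 10000. Peaks found in all 3 replicates gave 33.8 per Mb, 18.6 above far introns, 77.6% in first introns and 583 hosts. Leaving out each replicate gave 56.0 to 69.4% found in every remaining one. Fewer peaks lower a density and a count of hosts by construction; the cause of the other moves was not tested. Of 99 recomputed values for motifs and the five-base word, 4 reversed: Motif 1 became higher at summits above 1000 bp (0.0342 points) and in windows of 50 bp to each side (0.0420), the Pan site became higher with flanks at 1000 bp (0.126), and GAGAGAG became lower without replicate 1 (from -0.578 to 2.83 over the replicates left out); the cause was not tested. The five-base word differed by 3.96 points in windows of 50 bp to each side and by 14.2 points with flanks at 1000 bp, settings chosen after seeing the data.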
